A study of Mus musculus with 3 samples.

Results

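The genes considered here encode proteases that loosen the outer layer of the skin and the inhibitors that hold them back. They were chosen by name: Klk5, Klk6, Klk7, Klk8, Klk10 and Klk11, which lie in 1 cluster of kallikrein genes, the membrane protease genes St14 and Prss8, and the inhibitor genes Spink5 and Cst6. These are 10 of the 21900 protein-coding genes in the RefSeq table used, and because the kallikrein genes are neighbours they make up 5 loci. Chromatin came from suprabasal keratinocytes, epidermal cells that have left the basal layer and begun to differentiate, of wild type BALB/c mice. The labels call the animals adult, whereas the series text describes newborn skin and cells separated on a Percoll density gradient; neither gives the number of animals or says whether cells were pooled. Chromatin immunoprecipitation and sequencing (ChIP-seq) was done with an antibody against the homeodomain protein DLX3, a transcription factor active in epidermal differentiation, with one against H3K4me3, the trimethylated histone H3 lysine found at active promoters, and with nonspecific IgG, 1 library each. The DLX3 and H3K4me3 libraries each came with 1 list of peaks, and the IgG library was not analysed here. With no replicate there is no spread to test against, so every value below describes these 2 lists.

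The DLX3 list held 18087 peaks (median score 83.35, median width 627 bp) and the H3K4me3 list 16735 (median score 823.67, median width 2080 bp). The score is the deposited value for each peak, with no unit. It has the form of the MACS p-value score, rises with depth and width, and is read within its own list only, as a percentile rank. Peaks of equal score share their mean rank, as do the H3K4me3 peaks tied at 3100 (percentile 96.9). Read depths are unknown. Genes that mark suprabasal keratinocytes carried H3K4me3 within 1 kb of a gene end in 8 of 8 cases, and so did 5 of 5 basal keratinocyte markers and 4 of 4 hair follicle markers. The same held for 3 of 5 fibroblast, 1 of 4 melanocyte, 1 of 3 endothelial, 1 of 2 Merkel cell and 0 of 4 immune markers. The share of all protein-coding genes was not computed by this rule. Within 1 kb of a listed start, or of either end where no start was listed, it was 60.3%. The part of basal, follicle or other cells in the peaks described here was not tested, and a peak in bulk chromatin does not tell a strong signal in few cells from a weak one in many.

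Shedding of the cornified layer, called desquamation, depends on the digestion of the desmosome proteins that hold dead surface cells together. Kallikrein 5 and kallikrein 7 are the main trypsin-like and chymotrypsin-like enzymes of this step, and they are made as inactive precursors that other proteases cut. LEKTI, the product of Spink5, inhibits the kallikreins in a pH-dependent manner, and its loss causes Netherton syndrome in humans. Matriptase (St14) and prostasin (Prss8) are membrane-anchored serine proteases that act together in barrier formation, and cystatin M/E (Cst6) restrains the cysteine proteases cathepsin L and legumain.

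The start regions of 4 kallikrein genes are shown first because they represent the combinations found in the cluster: both DLX3 and H3K4me3 (Klk10 and Klk7), H3K4me3 alone (Klk8) and neither (Klk6). Each sequence is RefSeq, GRCm38.p6 (the assembly of mm10), plus strand of chromosome 7, from 250 bases before to 50 after the listed start, which gives chr7:43780804-43781103 for Klk10, chr7:43811044-43811343 for Klk7, chr7:43797327-43797626 for Klk8 and chr7:43824294-43824593 for the first of the 2 listed starts of Klk6. Capitals mark the homeodomain core TAATT or its reverse complement AATTA in Klk10, and the GC box GGGCGG or its reverse complement CCGCCC in the other 3.
Klk10: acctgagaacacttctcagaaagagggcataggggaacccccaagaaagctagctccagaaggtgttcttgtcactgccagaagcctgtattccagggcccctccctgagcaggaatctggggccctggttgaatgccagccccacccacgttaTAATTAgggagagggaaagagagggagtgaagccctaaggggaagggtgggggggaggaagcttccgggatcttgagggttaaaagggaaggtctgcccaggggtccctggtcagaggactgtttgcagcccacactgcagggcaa
Klk7: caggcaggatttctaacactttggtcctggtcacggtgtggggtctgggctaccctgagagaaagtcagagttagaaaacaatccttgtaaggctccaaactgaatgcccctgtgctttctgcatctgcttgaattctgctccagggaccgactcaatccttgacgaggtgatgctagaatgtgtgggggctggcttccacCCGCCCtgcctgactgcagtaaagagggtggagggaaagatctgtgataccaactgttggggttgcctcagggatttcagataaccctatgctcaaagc
Klk8: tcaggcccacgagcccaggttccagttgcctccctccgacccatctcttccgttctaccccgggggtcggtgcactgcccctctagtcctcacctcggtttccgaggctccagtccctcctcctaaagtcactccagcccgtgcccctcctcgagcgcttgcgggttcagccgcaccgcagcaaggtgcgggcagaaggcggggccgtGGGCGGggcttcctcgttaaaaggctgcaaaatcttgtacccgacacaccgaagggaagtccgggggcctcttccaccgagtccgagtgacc
Klk6: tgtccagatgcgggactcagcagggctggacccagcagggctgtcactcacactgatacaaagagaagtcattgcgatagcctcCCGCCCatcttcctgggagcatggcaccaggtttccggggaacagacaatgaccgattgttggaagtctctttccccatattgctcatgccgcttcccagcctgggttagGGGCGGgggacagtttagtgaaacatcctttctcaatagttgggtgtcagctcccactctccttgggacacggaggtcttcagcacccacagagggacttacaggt

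The Klk10 start region held the homeodomain core on both strands as the overlapping run TAATTA, which begins 96 bases before the listed start. The start region of Klk7 held no copy of it, and among all 8 listed start regions of the 6 kallikrein members only that of Klk10 did. Of all 32851 start regions in the table, 27.0% held TAATT or AATTA. The GC box was present in 4 of the 8 regions, at Klk8, Klk7 and both starts of Klk6, against 35.7% of all start regions. In Klk7 it overlapped a CACCC box (CCACCC or GGGTGG), a motif found in 4 of the 8 regions and 31.5% of all. The C/EBP motif TTGCNNAA was found at both listed starts of Klk11 and in 10.8% of all. The AP-1 motif TGANTCA (7.81% of all), the Grainyhead motif AACCNGTT (2.09%) and the TATA box TATAAA (13.6%) were in 0 of the 8. Paired p63 cores were searched at a fixed spacing only, found in 0 of the 8 and 0.557% of all. That search misses pairs with any other spacing, so it cannot decide whether a p63 site is present. Both strands were searched in each case, and a match is no evidence of binding. The Klk8 region stood apart from the other kallikreins in composition. It had 65.3% G+C and 23 CpG dinucleotides, close to the median of start regions with H3K4me3 (62.3% and 22), whereas the other 7 had 52.0% to 58.0% and 2 to 8 CpG. No start region was listed for St14, Prss8, Spink5 or Cst6, so for these 4 both ends of the gene span were used.

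Peaks of both lists were then counted over each gene span with 20 kb on either side. DLX3 peaks lay over 9 of the 10 genes, with Cst6 the exception, and over 4 of the 5 loci. Of all protein-coding genes 52.4% had one, and the 6 kallikrein genes share peaks, so they do not count as separate cases. H3K4me3 lay over 10 of 10 genes, against 71.2% of all. With peaks at or above the median score of each list, 8 of 10 had DLX3 against 36.0%, and 7 of 10 H3K4me3 against 53.7%. With only the top 20% by score, the small counts left, from 1 DLX3 and 2 H3K4me3 peaks, lay below the background. DLX3 then lay over 1 of 10 against 18.1%, and H3K4me3 over 2 of 10 against 27.0%. In total the loci held 13 DLX3 peaks and 14 H3K4me3 peaks in 392033 bp, which is 3.32 and 3.57 per 100 kb. The joined windows of all protein-coding genes held 1.01 and 1.11 per 100 kb. The 10 genes were shorter than most, with a median span of 5694.5 bp against 17146 bp over all.

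In the kallikrein cluster (Klk11 to Klk5, chromosome 7, 43774617 to 43851181; all 6 members run in the plus direction) 6 DLX3 peaks and 6 H3K4me3 peaks were found, 5.15 per 100 kb for each. The highest-scoring DLX3 peak, 135.17 (percentile 78.7), lay at Klk10, which encodes a kallikrein of uncertain proteolytic role. It ran from 43780157 to 43781659, covered the listed start and was 1503 bp wide, wider than almost all DLX3 peaks (width percentile 99.0). An H3K4me3 peak of score 418.66 (43780297 to 43784209) covered 90.7% of it. Klk7 was the other member with both marks on its start. Its DLX3 peak scored 67.53 (43811036 to 43811702, percentile 31.2) and was 96.4% covered by an H3K4me3 peak of score 403.13 (43811060 to 43814549).

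**Figure D1:**
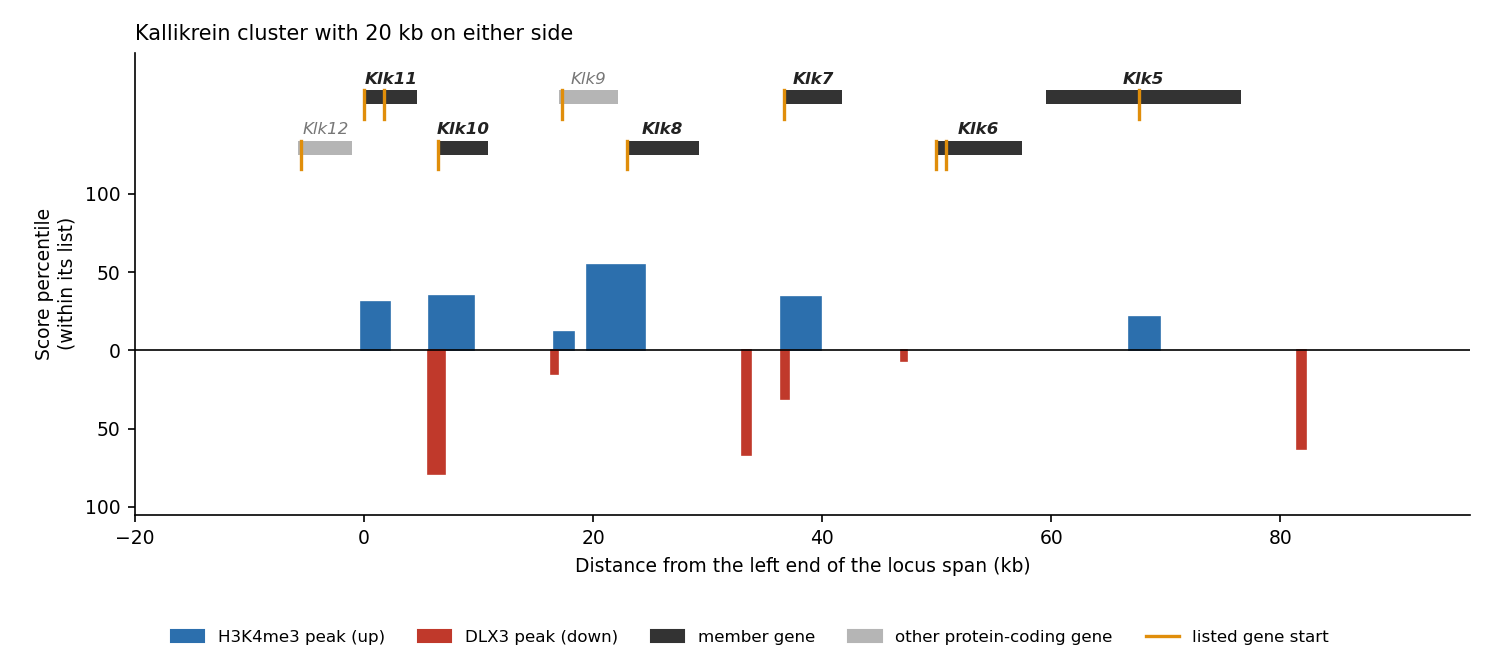
Peaks over the kallikrein cluster, drawn by distance in kb from the left end of Klk11, with bar height giving the score percentile within each list (H3K4me3 upward, DLX3 downward). H3K4me3 bars stand on the listed starts of Klk11, Klk10, Klk9, Klk8, Klk7 and Klk5 but not Klk12 or Klk6, and DLX3 bars stand on those of Klk10 and Klk7.

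The remaining kallikrein members carried H3K4me3 without DLX3 on the start, or neither. The highest H3K4me3 score of the cluster, 950.3, belonged to a peak at Klk8 (43794053 to 43799175), the gene of neuropsin, a trypsin-like protease of skin and brain. This peak was 5123 bp wide (width percentile 97.2), reached over the end of Klk9, and was the only one of the cluster above the list median. No DLX3 peak lay within 5985 bp of the Klk8 start. At Klk11 an H3K4me3 peak of score 330.82 (43774346 to 43776887) covered both listed starts, and the closest DLX3 peak, the one at Klk10, was 3827 bp away. At Klk5 an H3K4me3 peak of score 170.67 (43841433 to 43844100) covered the listed start, and DLX3 was 13787 bp from it. Klk6, which encodes another trypsin-like kallikrein, had no H3K4me3 peak within 9994 bp of its starts, although its neighbours on both sides were marked. A DLX3 peak of score 52.73 (43821498 to 43821994), close to the lowest score in the list (50.01), lay 2549 bp before its first start.

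The other 3 DLX3 peaks of the cluster lay between genes. One of score 106.06 (43807650 to 43808397) was found between Klk8 and Klk7, 2896 bp before the Klk7 start and 2662 bp from the nearest H3K4me3. Another, of score 100.39 (43856057 to 43856879), lay 4875 bp beyond the end of Klk5. The last, of score 57.71 (43790911 to 43791591), ended 299 bp before the listed start of Klk9, a kallikrein gene between Klk10 and Klk8, and 57.9% of it was covered by an H3K4me3 peak of score 90.19. Thus 3 of the 6 cluster peaks met H3K4me3, and the peaks of score 106.06 and 100.39, next in rank after that of Klk10, did not.

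The membrane proteases had the stronger H3K4me3 among the proteases. At St14 (chromosome 9, 31088590 to 31131811) an H3K4me3 peak of score 2002.31 (31127651 to 31132583, percentile 82.4) covered the right end of the span, and the left end had none within 29683 bp. A DLX3 peak of score 129.57 (31126533 to 31127145, percentile 76.9) lay inside the gene, separated from that broad H3K4me3 peak by 505 bp and from the gene end by 4665 bp. Deeper in the gene, a DLX3 peak of score 51.1 (31120740 to 31121532) shared 548 bp with a second H3K4me3 peak of score 271.18 (31118274 to 31121287). Both DLX3 peaks of St14 were thus intragenic, and the higher-scoring one stood just outside the H3K4me3 domain.

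At Prss8 (chromosome 7, 127925717 to 127930149) an H3K4me3 peak of score 1709.84 (127926542 to 127931085, percentile 76.2) covered the right end and most of the gene. The highest DLX3 score of all 5 loci, 213.62 (percentile 92.9), belonged to a peak from 127932407 to 127932913, 2257 bp beyond that end. It touched the left end of Prss36, a neighbouring serine protease gene whose listed start is at the opposite end, and it lay 1321 bp from the nearest H3K4me3. A second DLX3 peak (84.47, 127925022 to 127925808) covered the left end of Prss8, where the gene overlaps the histone acetyltransferase gene Kat8, and was 733 bp from H3K4me3. The remaining one (73.94, 127935119 to 127936160) lay inside Prss36 and wholly within an H3K4me3 peak of score 1243.09 (127934746 to 127936895), which was 9829 bp from the Prss36 start. The other H3K4me3 peak of the window (685.95, 127911643 to 127913684) covered the Kat8 start. Just outside the window, 484 bp from its edge, lay the H3K4me3 peak of Bckdk, a kinase gene of branched-chain amino acid breakdown.

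**Figure D2:**
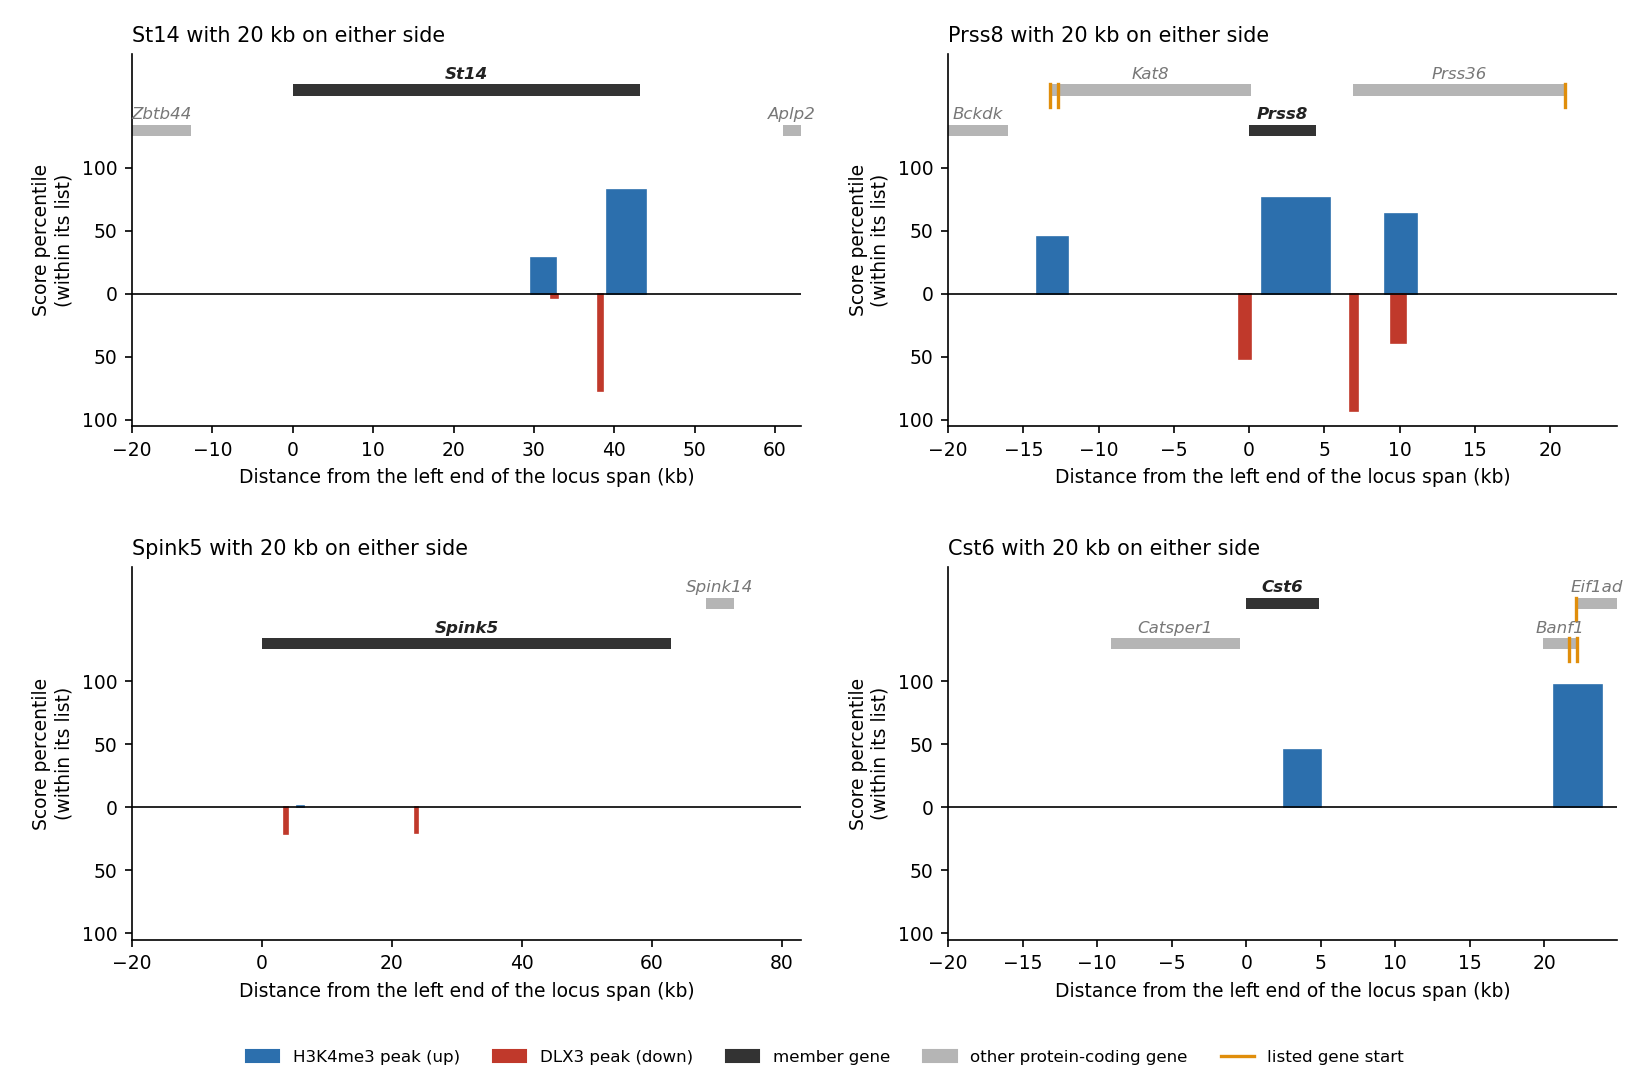
Peaks over St14, Prss8, Spink5 and Cst6 with 20 kb on either side, drawn as distance in kb from the left end of each gene span, with bar height giving the score percentile within each list (H3K4me3 upward, DLX3 downward). The H3K4me3 bar of Spink5 (percentile 0.717) is barely visible on this axis, and no DLX3 bar is present at Cst6.

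The inhibitor genes had low-scoring DLX3 peaks or none. Spink5 (chromosome 18, 43959545 to 44022487) held 2 DLX3 peaks inside the gene, with scores of 60.63 (43962888 to 43963571, percentile 21.2) and 60.42 (43983090 to 43983576, percentile 20.8). They lay 3342 and 23544 bp from the nearer end of the span, and neither met H3K4me3. Its single H3K4me3 peak (43964867 to 43965940) scored 51.36, higher than only about 0.717% of that list, was 1074 bp wide, and stood 5321 bp inside the span rather than at an end. Cst6 (chromosome 19, 5344705 to 5349574) showed the opposite arrangement. An H3K4me3 peak of score 699.52 (5347249 to 5349736, percentile 45.6) covered its right end, and no DLX3 peak lay within 38948 bp of either end. The closest one (183.1, 5388523 to 5389013) covered the start of Sart1, a splicing factor gene. A second H3K4me3 peak in the Cst6 window, of score 3100 (percentile 96.9), lay over the starts of Banf1, a chromatin protein gene, and Eif1ad.

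Near gene starts, H3K4me3 was found at 8 of the 10 genes within 1 kb of a listed start, or of either end where no start was listed, against 60.3% of all protein-coding genes by the same rule. The exceptions were Klk6 and Spink5. With H3K4me3 peaks at or above the median score the order turned, with 3 of 10 against 40.8%. DLX3 was found there at 3 of 10 (Klk10, Klk7 and Prss8), against 27.7%, so the members were close to the background. At Prss8 it was the end without H3K4me3 on it that carried DLX3. With a distance of 5 kb the count rose to 7 of 10, adding Klk6, Klk11, Spink5 and St14, against 32.9%. Klk11 was added through the peak already counted for Klk10, and Klk6 and Spink5 through low-scoring peaks (52.73 and 60.63). Both ends were used for 4 of the 10 members, whereas 17492 of the 21900 genes had a listed start, so the 2 shares are not fully alike.

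Of the 13 DLX3 peaks, 5 shared bases with H3K4me3, against 42.1% of the whole DLX3 list. With flanks of 50 kb it was 11 of 21, on the other side of that share, and with both lists restricted to scores at or above their median 0 of 6, against 37.2%. The 5 had a median score of 67.53 (51.1 to 135.17) and the 8 others 92.43 (52.73 to 213.62), with the ranges overlapping. Over the whole list the order was the reverse, 93.79 on H3K4me3 and 76.83 off it. These 13 peaks come from 1 library and 5 neighbourhoods, and the difference was not tested. By score the loci were unremarkable: 6 of 13 DLX3 peaks reached the list median and 1, at Prss8, was in the top 20%. Of the 14 H3K4me3 peaks 5 reached the median and 2 the top 20%, those at St14 and at Banf1 beside Cst6.

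**Figure D3:**
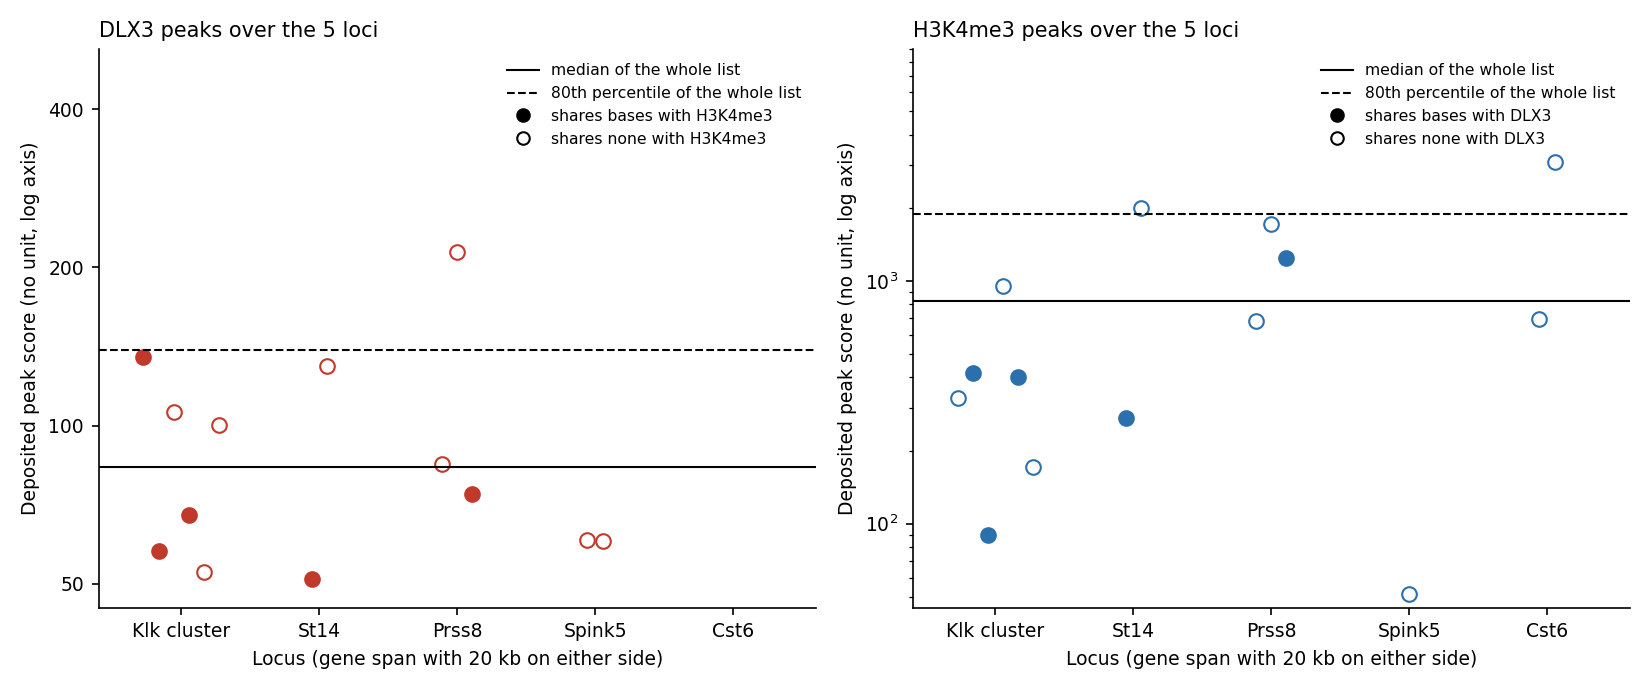
Deposited score of each DLX3 peak (left) and H3K4me3 peak (right) over the 5 loci on log axes, 1 point per peak, filled where it shares bases with the other list; lines give the median and the 80th percentile of each whole list. The DLX3 point at Prss8 (213.62) is the only one above the 80th percentile, and the H3K4me3 point of Spink5 (51.36) is the lowest.

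Counted gene by gene, Klk8 had the most DLX3 peaks over its span with flanks, 5, a number that 4.16% of protein-coding genes reach. Klk7 had 4 (reached by 7.69%), and Klk6 and Prss8 had 3 (14.7%). Klk5, Klk10, Klk11, St14 and Spink5 had 2 each (28.6%), and Cst6 had 0. For H3K4me3, Klk8, Klk10 and Klk11 had 4 peaks each (reached by 9.26%), and Klk7 and Prss8 had 3 (20.3%). Klk5, Klk6, St14 and Cst6 had 2 (41.8%), and Spink5 had 1 (71.2%). The kallikrein values count the same peaks repeatedly, and Klk8 lies in the middle of the cluster.

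**Figure D4:**
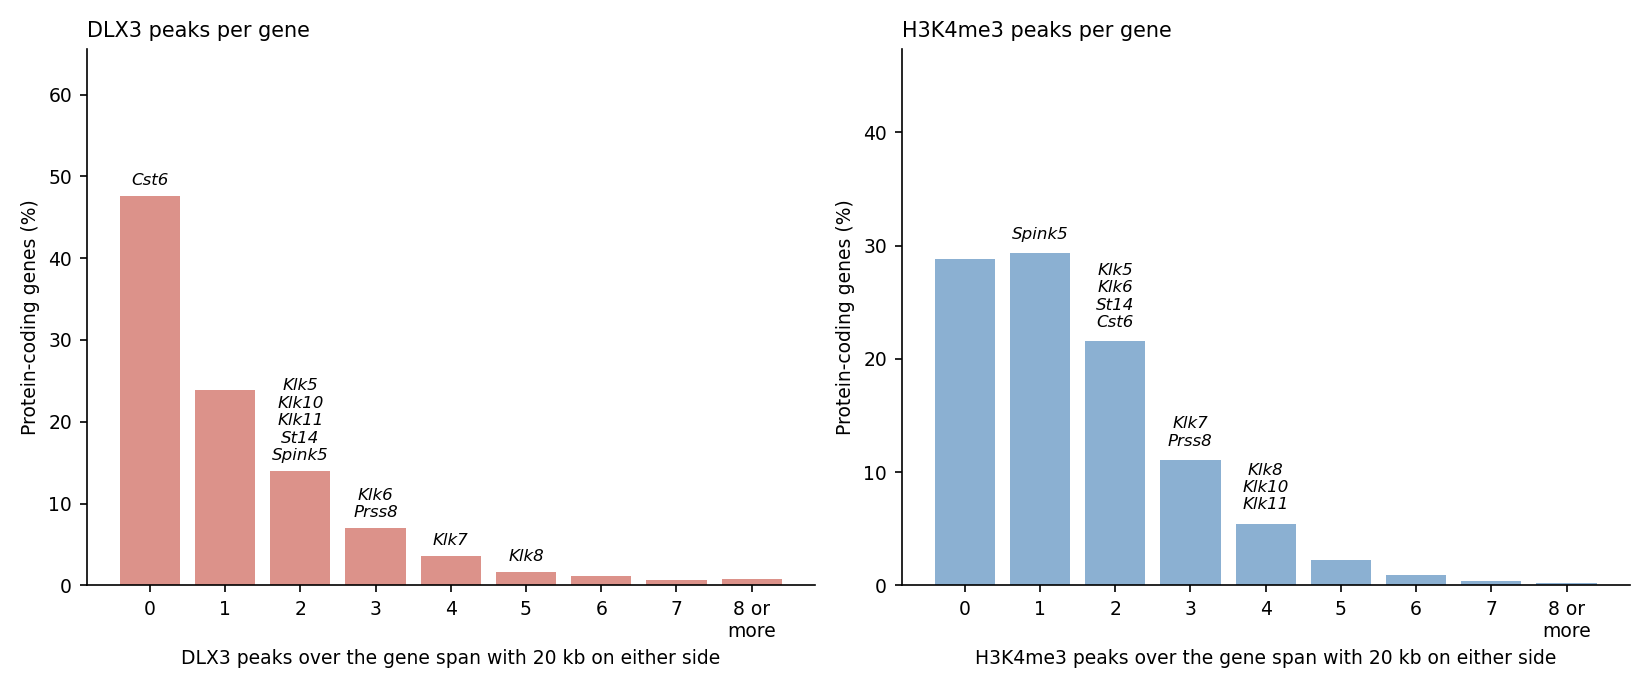
Percentage of all protein-coding genes by the number of DLX3 peaks (left) and H3K4me3 peaks (right) over the span with 20 kb on either side, with the 10 genes named above the bar of their own count. Klk8 sits at 5 DLX3 peaks and Cst6 at 0, while for H3K4me3 the genes run from 1 (Spink5) to 4.

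Beyond these 10, a list of 68 other genes of epidermal protease control was examined in the same way. DLX3 lay over 43 of them (63.2%, against 52.4% of all protein-coding genes) and H3K4me3 within 1 kb of a start or end of 40 (58.8%, against 60.3%). Some of the 43 share peaks, as Klk13 does with Klk14, and as Klk9 and Klk12 do with Klk10. The list was drawn up with earlier results of these data known. Other epidermal proteases had DLX3 at 22 of 27, receptors and substrates at 9 of 12, other kallikreins at 4 of 7 and other protease inhibitors at 8 of 22. The highest DLX3 scores belonged to Spint1, Ctsd, Htra1, Dsc1, Spint2 and Pkp1. Spint1 and Spint2 encode HAI-1 and HAI-2, the membrane inhibitors of matriptase and prostasin, and unlike St14 they had DLX3 directly on the start. At Spint1 that peak scored 195.65 (chromosome 2, 119237024 to 119237792), and at Spint2 176.42 (chromosome 7, 29281404 to 29282465), inside H3K4me3 peaks of score 2746.29 and 3047.99. The higher scores that ranked them, 303.13 and 201.07, lay 19074 and 17566 bp outside their spans, the second at the start of Yif1b. Ctsd, the gene of the lysosomal protease cathepsin D, had its top peak of 292.49 on its start, under H3K4me3. Htra1, a secreted serine protease gene, had 8 DLX3 peaks up to 284.37, all outside its H3K4me3. Of the structural genes, Dsc1, which encodes the desmosomal cadherin desmocollin 1, had its top peak (243.49) at an end of the gene, and Pkp1, the gene of the desmosome plaque protein plakophilin 1, had 198.0 within the gene.

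Among the kallikrein genes outside the 10, Klk9, which lies between Klk10 and Klk8, had 4 DLX3 and 5 H3K4me3 peaks over its span with flanks, shared with its neighbours. Klk13 had H3K4me3 on its start at a score of 96.12 and a DLX3 peak of 86.15 (chromosome 7, 43714587 to 43715186) 2019 bp from it. Klk14 had 3 DLX3 and 2 H3K4me3 peaks and Klk12 had 2 and 3, but neither gene had a peak within 1 kb of its start. The peaks counted for Klk14 were those at Klk13 and others within 1 kb of the start of a neighbour that is not a kallikrein. Those counted for Klk12 were the peaks at Klk11, Klk10 and Klk9. Klk15 had no peak of either list over its span with flanks.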

How the data were processed

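ChIP-seq peak lists of the DLX3 and H3K4me3 libraries, 1 per library, were used as deposited; nothing was pooled. Per the submitters' processing notes the authors used Bowtie 1.1.2, MACS 1.4.2 and HOMER with build mm10, without roles or settings. The names of both lists mention IgG; the control behind the calls is not stated in those notes or the labels. The deposited score per peak was used to describe and rank peaks within a list only. Depth per library is unknown, and with 1 library per antibody no test was made.

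Gene spans and start regions came from RefSeq tables of GRCm38.p6, the assembly of mm10; all 10 genes matched by symbol, and 6 had listed starts. A peak counted when any base lay in the window, overlap required 1 bp, and positions count from 1. Distances are the bases between a peak's edge and the point. Motifs were searched on both strands. Counting was checked on simulated intervals (Python 3.11.15, pandas 2.3.3, numpy 2.4.6). Named genes are the 10, the 6 genes of the wider list with the highest DLX3 score, other kallikreins of the cluster, and neighbours within 1 kb of a counted peak; Bckdk, Sart1, Yif1b, Vkorc1, Prss53 and Aplp2 fall outside this rule and were chosen after their values were seen. The Python plots used matplotlib 3.10.9. The members and lists were chosen with earlier results of these data known. Alternatives varied the flank, the score threshold, the overlap rule and the distance to starts.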

Additional observations from a re-analysis of the deposited data

How the results depend on the processing

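Under other settings, 25 of 40 recomputed counts stayed within 1.5 times of those reported. Without flanks, 5 member genes had DLX3 over the span, against 35.8% of all genes. Flanks of 50 kb gave 21 DLX3 peaks over the loci, 11 of them on H3K4me3, which is above the 42.1% of all DLX3 peaks, where 5 of 13 lay below it. With peaks at or above the median score of each list, 6 DLX3 and 5 H3K4me3 peaks were counted over the loci; 0 DLX3 peaks met H3K4me3, against 37.2% of all DLX3 peaks so chosen, and 3 members had H3K4me3 near the start, against 40.8% of all genes. The overlap count and that for H3K4me3 near the start then lay below the share over all features. Without the threshold, 8 of 10 near the start had lain above it. Over the span with flanks, 8 members with DLX3 (36.0% of all genes) and 7 with H3K4me3 (53.7%) stayed above that share. These members are not separate cases, because the kallikrein cluster then held only 3 DLX3 peaks and 1 H3K4me3 peak, shared between its genes. Cst6 counted for H3K4me3 only through the peak at Banf1. Near the start 2 of 10 members had DLX3, close to the 16.8% of all genes. With the top 20% of each list, 1 DLX3 and 2 H3K4me3 peaks were counted over the loci. In that setting 1 member had DLX3 over the span with flanks (18.1% of all genes) and 2 had H3K4me3 (27.0%). The 1 DLX3 peak did not meet H3K4me3, against 25.3% of all DLX3 peaks so chosen. Near the start, 1 member had H3K4me3 (17.6%) and 0 had DLX3 (7.3%). All 5 counts lay below the share over all features, but they are small and rest on the same few peaks, so they are not separate cases. The cause was not tested. Within 5 kb of a listed start, or of either end where none was listed, 7 members had DLX3, against 32.9%. Klk10 and Klk11 counted there through the same peak. Counting peaks by their centre, or asking for the centre or at least 50% of a DLX3 peak to lie under H3K4me3, left the counts these rules apply to, peaks and members over the spans with flanks and DLX3 peaks on H3K4me3, as reported; the centre rule was not run for the distance to starts. For single loci 36 of 60 counts stayed within 1.5 times. No paired analysis was possible because each antibody has 1 library. Depth is unknown, so a missing peak, as for DLX3 at Cst6, is a peak not called and not shown to be absent.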

Other observations

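Over all start regions in the RefSeq table, the homeodomain core TAATT or AATTA was present in 14.2% of the 6003 that overlapped a DLX3 peak and in 29.9% of the 26848 that did not, so Klk10, with the core under its DLX3 peak, belongs to the smaller share. The GC box showed the reverse, 73.2% against 27.3%. Start regions with a DLX3 peak also had more G+C, with a median of 63.7% against 52.7% for all regions, and the part of base composition in these shares was not tested. The Klk10 and Klk7 regions, at 57.3% and 52.0% G+C with 2 and 4 CpG, lay below the median of regions with DLX3, which was 24 CpG.

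Outside the windows, further DLX3 peaks lay near Prss8, whereas flanks of 50 kb added none at St14. Left of Prss8, a peak of score 158.21 (chromosome 7, 127895250 to 127895869) covered the start of Vkorc1, a vitamin K cycle gene, and a peak of 100.81 (127890783 to 127891225) covered that of Prss53, another serine protease gene, 669 bp from H3K4me3. Right of St14, a peak of score 298.52 (chromosome 9, 31217657 to 31218329, percentile 97.4) lay 85845 bp outside the span, past Aplp2, an amyloid precursor-like protein gene. It was 5808 bp from the Aplp2 start and did not meet H3K4me3.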
